A study of Tachysurus fulvidraco x Tachysurus vachelli with 6 samples.

Results

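The HSP90 chaperones and the proteins that drive their folding cycle were described in gill tissue of hybrid yellow catfish by RNA sequencing. The 6 genes were chosen by name from the deposited table: LOC113655582 (HSP90-alpha), hsp90ab1 (HSP90-beta), hsp90b1 (endoplasmin), and the cochaperone genes ahsa1, stip1 and ptges3. They are 6 of the 25792 genes in the table, and all 6 were among the 20771 genes with enough counts to be tested. The fish were juveniles of a cross between Tachysurus fulvidraco females and Tachysurus (Pelteobagrus) vachellii males, and the second gill of the left side was taken. One group, called transport here, had been under transport for 16 h. The other, called control, was untreated. Each group had 3 libraries, and the labels do not say whether a library is a single fish or a pool. The p-values therefore reflect differences among these 6 libraries, which may be technical in part.

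HSP90 proteins are dimers that hold nearly mature proteins, among them steroid hormone receptors and protein kinases, in a state from which they can be activated. HSP90-alpha and HSP90-beta work in the cytosol, where in vertebrates alpha is the more stress-inducible form and beta the constitutive one, while endoplasmin works in the endoplasmic reticulum. Cochaperones time the cycle: STIP1 passes clients over from HSP70, AHSA1 speeds the ATPase of HSP90, and PTGES3, also known as p23, holds the closed, ATP-bound dimer. In fish gill, which meets the water directly, HSP90 genes are known as responders to heat and other stressors.

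The libraries held between 42962760 and 58495713 estimated counts. A fragment appears to be worth about 4 of these units, which gives between 10740690 and 14623928 fragments per library. Gill markers were present. The ammonia channel gene rhcg had 116, 149 and 174 FPKM in transport libraries, against 152, 112 and 175 FPKM in control libraries (FPKM, which counts fragments relative to transcript length and library size, is the unit of all levels here). Of the 34 gill epithelium and ionocyte markers listed, 16 were matched, and the ionocyte factor gene foxi3 was listed at 0 in all but 1 library. Their summed level ranged from 2797 to 2834 FPKM in transport libraries and from 2823 to 3797 FPKM in control libraries. Of the 15 tested, atp1b1 and grhl1 rose and rhbg, tp63 and agr2 fell, which is 33.3% called against 6.69% of all genes tested. The 11 matched neutrophil and macrophage markers summed to 272 to 307 FPKM in transport libraries and 302 to 567 FPKM in control libraries. Of these, lyz and acod1 were called higher and nos2 lower, or 27.3% against 6.69% of all genes. Positive log2 fold changes were found for 6 of them and negative ones for 5. The 10 matched erythrocyte markers summed to between 189 and 226 FPKM in transport libraries and between 197 and 232 FPKM in control libraries. Of these, slc25a37 and hmbs were called higher and none lower, or 20% against 6.69% of all genes in either direction. The log2 fold changes of the erythrocyte markers were positive for 5 and negative for 5. The part of these shifts in the HSP90 results was not tested. In whole gill, more RNA per cell and more cells of a type cannot be told apart.

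All 6 genes had higher levels in every transport library than in any control library, and 3 of them rose by the test across all genes: LOC113655582, hsp90b1 and ahsa1. Log2 fold changes are transport minus control, from edgeR's quasi-likelihood test, and a gene was called at a Benjamini-Hochberg adjusted p under 0.05 over all genes tested. All 6 log2 fold changes were positive, as were 50.2% of those of all genes tested. Over the whole table, 3.23% of genes were called higher and 6.69% were called in either direction. These shares depend on the filter for low counts. With counts divided by 4, fewer genes were tested (18250) and more were called, 817 of them higher and 1675 in either direction. Levels that did not overlap, with transport higher, were found in 17.6% of all genes tested. The median log2 fold change of the 6 genes was 0.58, against 0.00 for all genes tested. The genes had been chosen with earlier results of these data known.

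**Figure D1:**
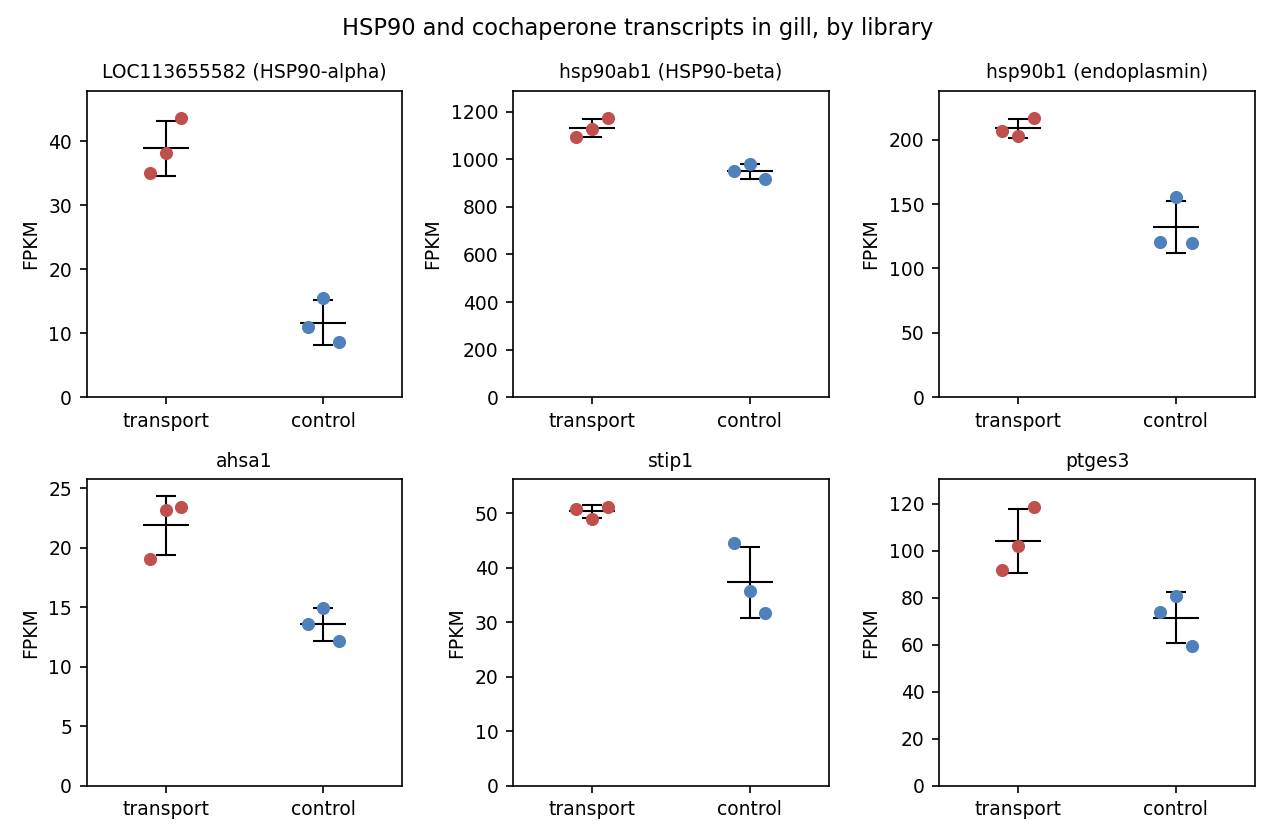
FPKM of the 6 genes in each gill library (vertical axes, starting at 0), with transport left of control; points are libraries, long horizontal bars the mean of 3 and whiskers the SD. In each panel the 3 transport points lie above the 3 control points. The relative difference of the means is largest for LOC113655582 (39.0 against 11.7 FPKM) and smallest for hsp90ab1 (1132 against 950 FPKM).

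LOC113655582, the cytosolic HSP90-alpha gene (gene ID 113655582, scaffold NW_020847971.1, 1293895 to 1299801, minus strand), had 35.1, 38.2 and 43.6 FPKM in transport libraries, against 10.9, 15.5 and 8.62 FPKM in control libraries. The lowest transport level was thus above the highest control level with a wide gap between them. The means were 39.0 ± 4.31 FPKM after transport and 11.7 ± 3.48 FPKM in control (SD, n = 3 each). The log2 fold change was 1.72 (SE 0.22), a 3.30-fold higher level, with an edgeR adjusted p of 0.0131. This rise exceeded that of 97.6% of the genes tested, and the gene ranked 162 by p among the 20771. Its rank by level among all genes of the table, with 1 the highest, was between 1646 and 2058 in transport libraries and between 4655 and 7553 in control libraries. The lowest value rested on about 285 fragments, where counting alone gives an error of 5.93%. Left out 1 at a time, transport replicate 2 and transport replicate 3 were the libraries without which the gene was no longer called (edgeR adjusted p = 0.0923 and 0.0574), with log2 fold changes of 1.74 and 1.63.

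The constitutive cytosolic gene hsp90ab1 (NW_020847971.1, 2113725 to 2119994, minus strand) had 1096, 1127 and 1172 FPKM in transport libraries, against 949, 982 and 919 FPKM in control libraries. The groups did not overlap, and every transport library lay above the highest control. On average it had 1132 ± 38.5 FPKM after transport and 950 ± 31.3 FPKM in control (SD, n = 3 each). The log2 fold change of 0.24 (SE 0.07) did not pass the threshold (edgeR adjusted p = 0.0847), nor did it under any alternative tried. hsp90ab1 ranked between 107 and 113 by level in transport libraries and between 118 and 126 in control libraries. Counting error was negligible for it, with at least 27489 fragments in every library.

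hsp90b1, which encodes endoplasmin, the HSP90 of the endoplasmic reticulum (NW_020847801.1, 4290997 to 4297023, minus strand), had 207, 203 and 217 FPKM in transport libraries, against 121, 156 and 120 FPKM in control libraries. The transport libraries lay close together, and control replicate 2 stood above the other controls. The means were 209 ± 7.09 FPKM after transport and 132 ± 20.4 FPKM in control (SD, n = 3 each). The log2 fold change was 0.64 (SE 0.12, adjusted p = 0.0317 by edgeR), or 1.56-fold. The call held without control replicate 2 (edgeR adjusted p = 0.0177) and was lost without any other single library. The adjusted p was then 0.0786, 0.145 and 0.122 when transport replicates 1, 2 and 3 were left out, and 0.0585 and 0.0967 when control replicates 1 and 3 were. The gene overlaps glt8d2 on the opposite strand by 126 bases, and glt8d2 had 0.280 FPKM after transport and 0.187 FPKM in control on average. Whether strand was used in counting is not stated in the sources used here, so the assignment of reads from the shared stretch is not known.

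ahsa1, for the activator of the HSP90 ATPase (NW_020848035.1, 4535687 to 4539977, plus strand), had 19.1, 23.2 and 23.5 FPKM in transport libraries, against 13.6, 14.9 and 12.1 FPKM in control libraries. The groups were separate, with transport replicate 1 nearest to the controls. Its means were 21.9 ± 2.47 FPKM after transport and 13.6 ± 1.40 FPKM in control (SD, n = 3 each). The log2 fold change was 0.67 (SE 0.14, adjusted p = 0.0398 by edgeR), or 1.59-fold. This call was lost whichever library was left out, at adjusted p-values of 0.0582, 0.179 and 0.147 without transport replicates 1, 2 and 3 and 0.0685, 0.0533 and 0.107 without control replicates 1, 2 and 3. Its last 401 bases overlap LOC113659750, a gene on the opposite strand annotated as similar to the DR1-associated corepressor, which had 9.45 FPKM after transport and 6.93 FPKM in control on average (log2 fold change 0.43, SE 0.20, adjusted p = 0.233 by edgeR). No source used here states that strand was used in counting, so reads of the shared stretch cannot be told apart.

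stip1, whose product bridges HSP70 and HSP90 (NW_020848141.1, 355982 to 368636, plus strand), had 50.8, 49.0 and 51.2 FPKM in transport libraries, against 44.6, 35.7 and 31.8 FPKM in control libraries. The transport libraries were nearly equal, while the controls were spread, with control replicate 1 the highest of them. That control (44.6 FPKM) came close to the lowest transport library (49.0 FPKM). The means were 50.3 ± 1.16 FPKM after transport and 37.3 ± 6.56 FPKM in control (SD, n = 3 each). The log2 fold change of 0.41 (SE 0.13) was not called (edgeR adjusted p = 0.105). Without control replicate 1 it was called, at a log2 fold change of 0.54 (edgeR adjusted p = 0.0342).

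ptges3, for the cochaperone p23 (NW_020848014.1, 1305191 to 1309645, minus strand), had 91.7, 102 and 119 FPKM in transport libraries, against 74.0, 80.9 and 59.6 FPKM in control libraries. Both groups were spread, and the lowest transport library (91.7 FPKM) came close to the highest control (80.9 FPKM), as it did for stip1. Its means were 104 ± 13.6 FPKM after transport and 71.5 ± 10.9 FPKM in control (SD, n = 3 each). The log2 fold change of 0.53 (SE 0.15) was not called (edgeR adjusted p = 0.0832), with all 6 libraries or with any 1 left out. Both stip1 and ptges3 passed with DESeq2, at adjusted p-values of 0.0456 and 0.0183, where 8.30% of all genes with an adjusted p were called higher.

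**Figure D2:**
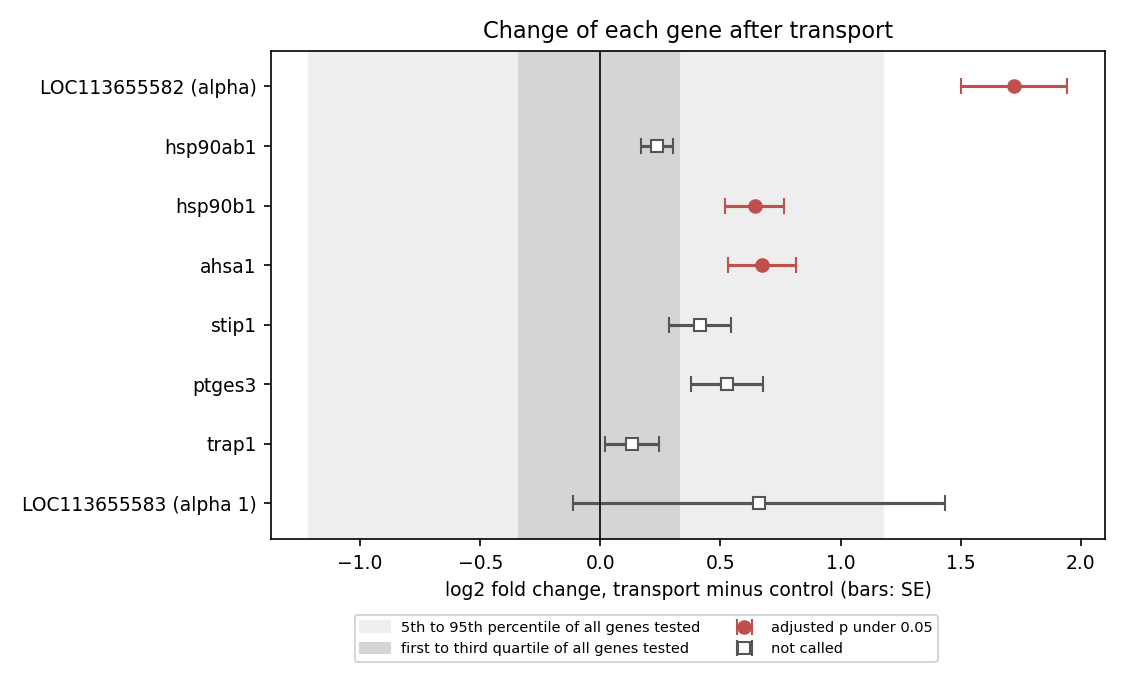
Log2 fold change, transport minus control, with its SE (horizontal axis) for the 6 genes and 2 further HSP90 genes; shaded bands give the ranges of all 20771 genes tested, and filled circles mark genes at an adjusted p under 0.05. LOC113655582, at 1.72, lies above the 95th percentile of all genes (1.18), hsp90ab1 (0.24) lies inside the middle band, and the other members lie between.

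**Figure D3:**
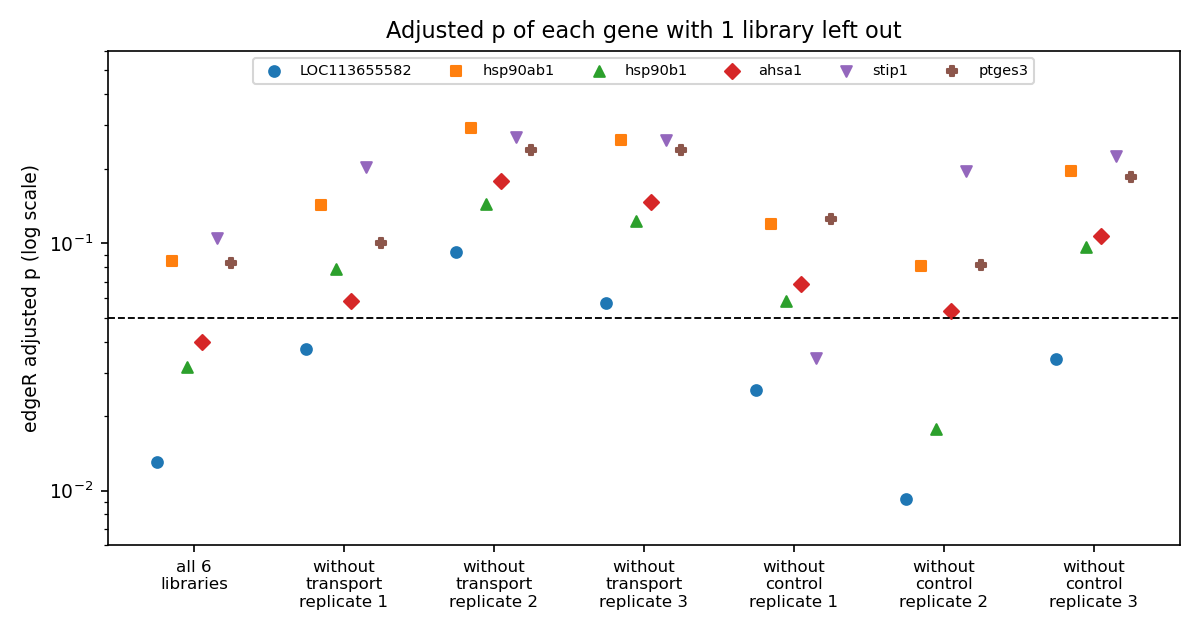
edgeR adjusted p (vertical log axis) of each of the 6 genes with all libraries and with each library left out; the dashed line marks 0.05. LOC113655582 crosses the line without transport replicates 2 and 3, ahsa1 lies above it whichever library is left out, hsp90b1 stays under it only without control replicate 2, and stip1 drops under it only without control replicate 1.

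The unadjusted edgeR p was under 0.05 for all 6 genes, in a table where 12.3% of genes had such a p with a positive change and 25.0% in either direction. In each of the 16 alternative fits, an unadjusted p under 0.05 was again found for all 6. Those fits reuse the same libraries and are not independent, and the share of all genes with such a p in them was not counted. At the adjusted threshold, the number of genes called depended strongly on single libraries. With all 6 libraries 3.23% of genes were called higher, against 1.09%, 0.00938% and 0.417% without transport replicates 1, 2 and 3, and 3.08%, 2.23% and 0.966% without control replicates 1, 2 and 3. No member was called by edgeR without transport replicate 2 or without transport replicate 3, when 3 and 162 genes of the table were called in either direction.

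The order of the levels differed between the groups at its lower end. In transport libraries it ran from hsp90ab1 through hsp90b1, ptges3, stip1 and LOC113655582 down to ahsa1, and no neighbouring pair overlapped. In control libraries hsp90ab1, hsp90b1, ptges3 and stip1 kept these places, but ahsa1 (12.1 to 14.9 FPKM) and LOC113655582 (8.62 to 15.5 FPKM) overlapped and did not differ beyond their spread. In FPKM, the mean difference between transport and control was 182 (SE 28.6) for hsp90ab1, 76.7 (SE 12.5) for hsp90b1, 32.6 (SE 10.07) for ptges3, 27.3 (SE 3.20) for LOC113655582, 13.0 (SE 3.85) for stip1 and 8.33 (SE 1.64) for ahsa1. The member with the smallest fold, hsp90ab1, thus had the largest difference in level. The difference of LOC113655582, with the largest fold, lay within the SE of that of ptges3, so their order is not resolved.

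HSP90-beta made up nearly all of the cytosolic pool in both groups, and the alpha share was larger in every transport library than in any control. HSP90-alpha made up 3.10%, 3.28% and 3.59% of the alpha and beta FPKM in transport libraries, against 1.14%, 1.55% and 0.929% in control libraries. Alpha is LOC113655582 alone in these values. A second gene annotated as HSP90-alpha, LOC113655583, is left out, with at most 1.87 FPKM in a transport library and 1.70 FPKM in control replicate 1. There were 31.2, 29.5 and 26.9 FPKM of beta for each FPKM of alpha in transport libraries, against 86.9, 63.5 and 107 in control libraries. The log2 ratio of alpha to beta differed by 1.52 between transport and control, higher in 3 of 3 transport libraries than in every control (two-sided exact permutation test, p = 0.10, the smallest that 3 against 3 libraries allow). This separation follows from the levels of both genes given above, so the test adds no independent evidence. Summed, alpha and beta had 1131, 1165 and 1216 FPKM in transport libraries and 960, 997 and 928 FPKM in control libraries, and most of that gap came from beta. Reads that match both genes cannot be told apart with these values, and the sources used here do not say how they were assigned.

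Relative to this cytosolic pool, ahsa1 stood at 1.68, 1.99 and 1.93 FPKM per 100 FPKM of alpha and beta in transport libraries, against 1.42, 1.50 and 1.31 in control libraries, with no overlap. For endoplasmin the same quotient was 18.3, 17.4 and 17.8 in transport libraries, against 12.6, 15.6 and 12.9 in control libraries, again without overlap. The quotients of stip1 (4.49, 4.21 and 4.21 after transport, against 4.64, 3.58 and 3.42 in control) and of ptges3 (8.11, 8.75 and 9.76 after transport, against 7.70, 8.11 and 6.42 in control) overlapped between the groups. These quotients are descriptions, and no test was made of them. The share of all genes without overlap in such a quotient was not counted. For FPKM itself, levels without overlap and with transport higher were found in 17.6% of all genes tested.

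**Figure D4:**
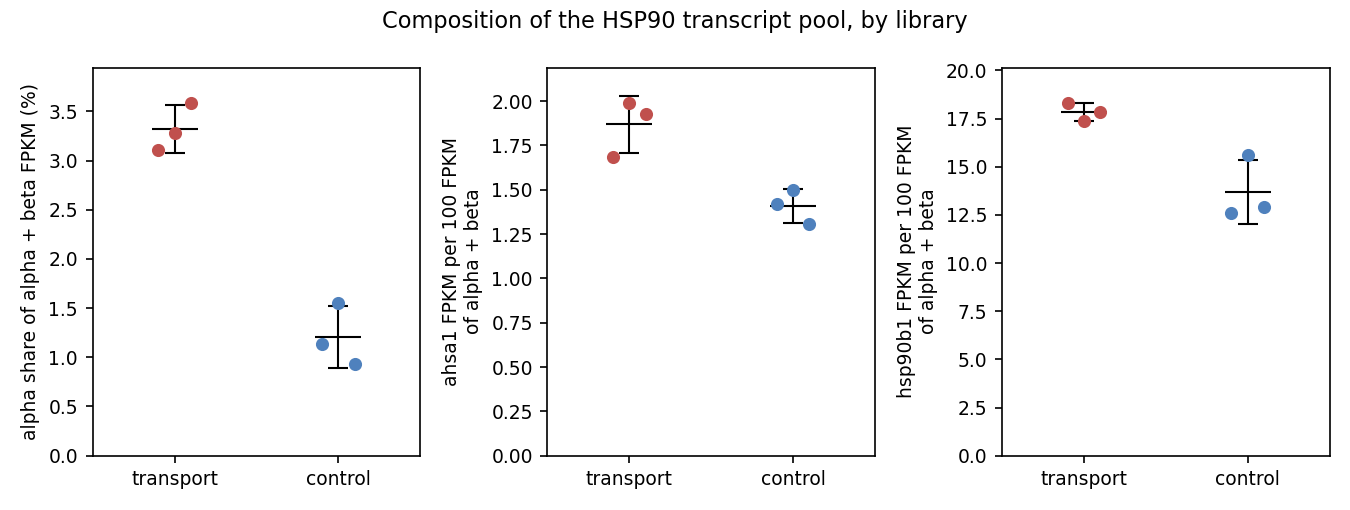
Share of HSP90-alpha in the summed alpha and beta FPKM (left, percent), and FPKM of ahsa1 (middle) and hsp90b1 (right) per 100 FPKM of alpha and beta, with transport left of control; points are libraries, bars the mean and whiskers the SD of 3. The alpha share, of LOC113655582 alone, lies between 3.10% and 3.59% in transport libraries and between 0.929% and 1.55% in control libraries.

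LOC113655582 lies head to tail with a second gene annotated as HSP90-alpha 1, LOC113655583 (NW_020847971.1, 1299895 to 1308811, minus strand), with 93 bases between them, and hsp90ab1 lies 813923 bases away on the same scaffold. In zebrafish, 1 of a tandem pair of HSP90-alpha genes serves myosin folding in muscle fibres. Whether LOC113655583 is its counterpart was not tested. LOC113655583 had 0.560, 1.36 and 1.87 FPKM in transport libraries, against 1.70, 0.460 and 0.220 FPKM in control libraries. Its groups overlapped, and its log2 fold change of 0.66 (SE 0.77) was not called (edgeR adjusted p = 0.654), with a range of 0.22 to 1.84 when 1 library was left out. The 31 matched genes of a skeletal muscle list of 63 summed to 100.2, 230 and 348 FPKM in the same transport libraries. In the control libraries the sum was 487, 116 and 115 FPKM. None of the 30 tested was called by edgeR, where 6.69% of all genes were. An unadjusted edgeR p under 0.05 was found for 2, or 6.67% against 25.0% of all genes. Control replicate 1 and transport replicate 3 were thus the highest of their groups for LOC113655583 and for the muscle sum. Not every gene of the list had this order. The myoglobin gene mb had 21.5, 10.7 and 2.20 FPKM in transport libraries and 23.2, 8.32 and 15.7 FPKM in control libraries. The parvalbumin gene pvalb, one of the abundant genes of the list, had 9.60, 73.5 and 123 FPKM in transport libraries and 116, 26.3 and 21.4 FPKM in control libraries. In the transport libraries LOC113655582 (35.1, 38.2 and 43.6 FPKM) had the same order as the muscle sum and LOC113655583. The members hsp90ab1, ahsa1 and ptges3 had this order too. In the controls the order of LOC113655582 differed, with the highest level in control replicate 2. Its log2 fold change was 1.66 without control replicate 1 (edgeR adjusted p = 0.0256) and 1.63 without transport replicate 3 (edgeR adjusted p = 0.0574). The part of muscle RNA in it was not tested.

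**Figure D5:**
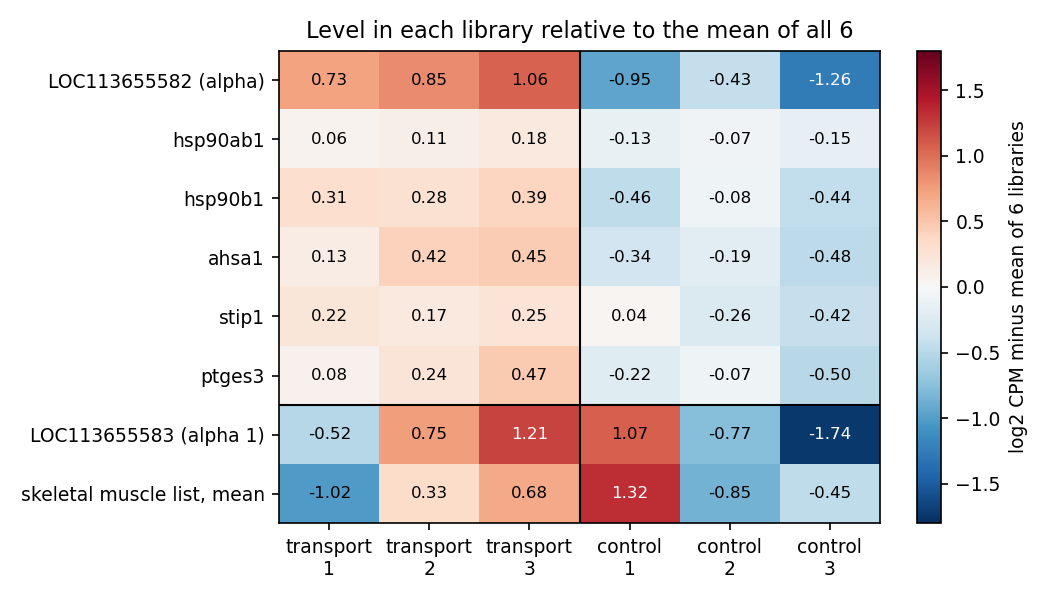
Log2 CPM (counts scaled to library size, with TMM) of the 6 genes, of LOC113655583 and of the mean skeletal muscle gene in each library, relative to the mean over all 6 libraries; columns run from transport to control, with lines between the groups and below the members. The upper 6 rows are positive in transport libraries and, but for stip1 in control replicate 1 (0.04), negative in controls, while the lower 2 rows are highest in transport replicate 3 and control replicate 1.

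None of the 11 tested genes that lie next to a member was called by edgeR, where 6.69% of all genes were, and 2 had an unadjusted p under 0.05, or 18.2% against 25.0% of all genes. Before LOC113655582 lies LOC113655597, annotated as a regulatory subunit of protein phosphatase 2A, at 28.5 FPKM after transport and 36.8 FPKM in control on average (log2 fold change -0.39, edgeR adjusted p = 0.0736). hsp90ab1 is flanked by the sulfate donor transporter gene slc35b2 (log2 fold change -0.21) and the splicing gene rbm25 (0.21). Of the 21 tested genes between both cytosolic HSP90 genes, 1 was called higher and 1 lower.

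The mitochondrial HSP90 gene, trap1, was not called. It had 21.4, 23.1 and 24.2 FPKM in transport libraries, against 22.2, 21.3 and 18.4 FPKM in control libraries, with overlapping groups and a log2 fold change of 0.13 (SE 0.11, adjusted p = 0.519 by edgeR). A second gene similar to ahsa1, LOC113643342, had 0.690, 1.53 and 2.94 FPKM in transport libraries, against 1.93, 0.760 and 0.940 FPKM in control libraries. It was not called (log2 fold change 0.49, SE 0.60, adjusted p = 0.668 by edgeR), and its log2 fold change was -0.14 without transport replicate 3.

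Of 44 other cochaperones of HSP90 listed, 33 were matched and tested, and of these edgeR called 1 higher, or 3.03%, near the 3.23% of all genes, and none lower. A positive log2 fold change was found for 25 and a negative one for 8. Their median was 0.11, against 0.00 for all genes. At an unadjusted edgeR p under 0.05 there were 5, or 15.2% against 25.0% of all genes, with 4 positive and 1 negative. The called gene was ttc4, whose product binds HSP90 through tetratricopeptide repeats, at 10.7, 12.5 and 14.3 FPKM in transport libraries, against 6.42, 6.92 and 7.03 FPKM in control libraries (log2 fold change 0.86, SE 0.15, adjusted p = 0.0274 by edgeR). It was no longer called without control replicate 2 or 3 or transport replicate 2 or 3. Genes named for their role after their values were seen were the immunophilin fkbp4, a partner of steroid receptors (22.4 FPKM after transport and 19.8 FPKM in control on average), and fkbp5, a glucocorticoid-induced immunophilin (272 FPKM after transport and 181 FPKM in control, log2 fold change 0.57, SE 0.25, adjusted p = 0.209 by edgeR). The cyclophilin gene ppid had 33.6 FPKM after transport and 24.1 FPKM in control (log2 fold change 0.46, SE 0.13, adjusted p = 0.0814 by edgeR). The kinase-specific cochaperone gene cdc37 had 22.6 FPKM after transport and 21.2 FPKM in control (log2 fold change 0.08, SE 0.19, and -0.16 without transport replicate 3). Its span holds a second gene annotated as Cdc37, LOC113636961, on the same strand, so reads of the shared stretch may have been counted for either gene. The HSP70-interacting gene st13, which acts before stip1 in the cycle, had 73.5 FPKM after transport and 68.7 FPKM in control (log2 fold change 0.08, SE 0.08). Named in the same way, unc45a had 15.4, 13.6 and 13.0 FPKM in transport libraries, against 15.6, 16.3 and 18.0 FPKM in control libraries. Its log2 fold change was -0.27 (SE 0.11, adjusted p = 0.196 by edgeR), and that of stub1 was -0.10 (SE 0.10).

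The upstream regulator gene hsf1, whose product drives heat shock genes and is itself held by HSP90, had 9.14 FPKM after transport and 10.2 FPKM in control on average, and was not called (log2 fold change -0.18, SE 0.13, adjusted p = 0.448 by edgeR). In the list of heat shock factors and HSP70 partners, 29 were listed, 16 were matched and tested, 2 of these were called higher, or 12.5% against 3.23% of all genes, none was called lower, and the median log2 fold change was 0.16. The unadjusted edgeR p was under 0.05 for 4, which is 25.0% of them, the same share as of all genes. The J-protein gene dnaja4, an HSP70 cochaperone, had 72.7, 76.0 and 80.6 FPKM in transport libraries, against 48.4, 45.0 and 41.0 FPKM in control libraries (log2 fold change 0.75, SE 0.10, adjusted p = 0.0136 by edgeR). hspa14, which in mammals encodes a ribosome-bound HSP70, had 10.3, 13.3 and 13.9 FPKM in transport libraries, against 6.49, 7.64 and 6.85 FPKM in control libraries (log2 fold change 0.82, SE 0.16, adjusted p = 0.0331 by edgeR). Neither was called without transport replicate 2 or transport replicate 3. The dnaja4 call held without any other single library, and the hspa14 call held only without transport replicate 1.

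Genes for proteins that HSP90 is known to hold in mammals differed in direction. Of 49 listed, 34 were matched and tested, and of these 1 was called higher and 3 lower, or 11.8% in either direction against 6.69% of all genes. The unadjusted edgeR p was under 0.05 for 10, or 29.4% against 25.0% of all genes, with 3 positive and 7 negative. Their log2 fold changes were positive for 12 and negative for 22, with a median of -0.08. epas1, for the hypoxia-inducible factor HIF-2-alpha, had 109.7, 100.4 and 106 FPKM in transport libraries, against 67.5, 57.7 and 72.4 FPKM in control libraries (log2 fold change 0.66, SE 0.11, adjusted p = 0.0220 by edgeR). The mitotic kinase gene plk1 had 10.5, 11.9 and 8.67 FPKM in transport libraries, against 19.4, 25.0 and 23.3 FPKM in control libraries (log2 fold change -1.14, SE 0.16, adjusted p = 0.0164 by edgeR). The receptor kinase gene kit (log2 fold change -1.01, SE 0.15) and the mineralocorticoid receptor gene nr3c2 (-1.10, SE 0.23) were the other genes called lower, at edgeR adjusted p-values of 0.0194 and 0.0378. These 3 lower calls were lost without control replicate 3 and without each transport library in turn, and that of nr3c2 also without control replicate 2. Over the table, 718 genes were called lower with all 6 libraries and 172 without control replicate 3. Without transport replicates 1, 2 and 3 there were 166, 1 and 73. With 1 library left out, log2 fold changes ranged from -1.26 to -1.04 for plk1, -1.13 to -0.91 for kit and -1.23 to -0.91 for nr3c2. The epas1 call was lost without each transport library in turn and held without any 1 control library.

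A list around endoplasmin held 34 genes of protein folding and stress signalling in the endoplasmic reticulum, with client receptors, and 27 were matched and tested. It includes the sensors and transcription factors atf4, atf6, xbp1, ddit3 and eif2ak3 and the receptor tlr2, so its counts do not describe folding proteins alone. Among the 27, 1 was called higher and 1 lower, or 7.41% against 6.69% of all genes. The unadjusted edgeR p was under 0.05 for 9, or 33.3% against 25.0% of all genes, with 6 positive and 3 negative. Their log2 fold changes were positive for 15 and negative for 12, with a median of 0.07. manf, a secreted protein of the endoplasmic reticulum stress response, had 42.6, 43.8 and 43.7 FPKM in transport libraries, against 20.4, 29.3 and 21.6 FPKM in control libraries (log2 fold change 0.85, SE 0.15, adjusted p = 0.0289 by edgeR). Like hsp90b1, it was nearly level across the transport libraries. Control replicate 2 was its highest control, as for every member but stip1. The gene tlr2, a receptor that endoplasmin folds in mammals, had 2.67, 2.81 and 2.19 FPKM in transport libraries, against 5.77, 4.33 and 7.44 FPKM in control libraries (log2 fold change -1.21, SE 0.24, adjusted p = 0.0326 by edgeR). Both calls were lost without control replicate 3 and without each transport library in turn. Over the table, 1389 genes were called with all 6 libraries and 379 without control replicate 3. Without transport replicates 1, 2 and 3 there were 399, 3 and 162. With 1 library left out, the log2 fold change ranged from 0.73 to 1.03 for manf and from -1.39 to -0.99 for tlr2. Nearest to the threshold among those not called was ero1b, an oxidase of disulfide bond formation, at 4.95, 4.20 and 4.03 FPKM in transport libraries, against 6.67, 7.56 and 13.2 FPKM in control libraries (log2 fold change -1.08, SE 0.27, adjusted p = 0.0600 by edgeR). Named like ero1b after their values were seen, the chaperone genes hyou1 (log2 fold change 0.50, SE 0.14), pdia6 (0.40, SE 0.11) and sdf2l1 (0.54, SE 0.16) had edgeR adjusted p-values of 0.0748, 0.0745 and 0.0856, while pdia4 stood at 0.09 (SE 0.09). The more abundant pdia3 (309 FPKM after transport and 305 FPKM in control) had a log2 fold change of -0.002 (SE 0.09). For ppib (414 and 429 FPKM) it was -0.07 (SE 0.12), and for p4hb (37.9 and 39.7 FPKM) -0.09 (SE 0.14). The transcription factor gene atf4, which acts in the same stress response, had a log2 fold change of -0.23 (SE 0.09, adjusted p = 0.152 by edgeR).

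The genes whose levels followed each member most closely were found by the root-mean-square distance between log2 CPM profiles over the 6 libraries, each centred on its own mean, among 5622 or 5623 genes with a symbol and a mean of at least 5 FPKM. For LOC113655582 they were esm1, a proteoglycan gene of endothelium (distance 0.26), fam167b (0.26) and the urea cycle gene otc (0.29). For hsp90b1 they were the Rab-regulating gene tbc1d2 (0.05), the endoplasmic reticulum syntaxin gene stx18 (0.05) and the lipid phosphatase gene plpp5 (0.05). For ahsa1 they were the ribosome assembly gene pes1 (0.03), the mitochondrial ribosome gene mrpl17 (0.03) and the tRNA methyltransferase gene nsun2 (0.04).

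For hsp90ab1 the closest were the transcription genes taf8 (0.02) and aff4 (0.03) and the ribosomal protein gene rps29 (0.03). For stip1 they were entpd4 (0.02), apex2 (0.03) and rab3ip (0.04), and for ptges3 the splicing-associated gene ppil1 (0.05), txnrd3 (0.05) and pparg (0.05). These distances describe 6 libraries that fall into 2 groups, and any gene with a like difference between the groups comes close. Among the members themselves, ahsa1 and ptges3 were nearest (0.10), followed by ahsa1 and hsp90b1 (0.12), and LOC113655582 and hsp90ab1 were farthest apart (0.79).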

How the data were processed

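Per the file headers, the authors' deposited table gives an estimated count and an FPKM value per gene and library, in 12 columns that were all used. HISAT and StringTie are named, with no version, per the submitters' processing notes. For the genome build, none is given in the sources used here, and coordinates are those of the table. Many product names in it are tagged Tachysurus fulvidraco, the maternal species of the cross. How reads from the paternal species were assigned is not known. The deposited counts were whole and needed no rounding, but values of 4 were several times as frequent as 3 or 5, so a fragment seems worth about 4 units. Libraries held 42962760 to 58495713 such units, so counting error bears mainly on genes with few counts.

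Transport was compared with control in edgeR 4.0.16 (R 4.3.3): filterByExpr (minimum count 10, minimum total 15), TMM, quasi-likelihood F tests (two-sided, no covariates), and Benjamini-Hochberg adjustment over 20771 genes. SE was taken as the absolute log2 fold change over the root of F. Lists were matched by symbol. Neighbours, overlapping genes and a few genes of known role were named after their values were seen. The 16 alternatives were DESeq2 1.42.0, limma 3.58.1 on log2(FPKM + 1) or log2(FPKM + 0.1), other scalings and filters, counts divided by 4, a replicate block and leaving out each library. The scripts were tested on simulated counts. The rule for named genes took all 6 members, 3 similar genes each, and up to 6 called genes per list (else the one with the smallest p). Members and lists were chosen with earlier results of these data known.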

Additional observations from a re-analysis of the deposited data

How the results depend on the processing

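All 6 genes kept a positive log2 fold change in all 16 alternative fits. Leaving out 1 library gave ranges of 1.55 to 1.98 for LOC113655582, 0.20 to 0.26 for hsp90ab1, 0.56 to 0.78 for hsp90b1, 0.60 to 0.77 for ahsa1, 0.32 to 0.54 for stip1 and 0.41 to 0.63 for ptges3. The transport minus control difference in the log2 ratio of LOC113655582 to hsp90ab1 ranged from 1.35 to 1.72 in the same way. With DESeq2, stip1 (0.41) and ptges3 (0.52) passed the threshold, and 3336 genes were called over the table.

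The sample numbers of the 2 groups are not stated to pair fish, and same-numbered libraries did not deviate together (correlations of -0.07, -0.03 and -0.04 over 20771 genes). With the replicate number as a block, 14 genes were called, and LOC113655582 (1.76), hsp90b1 (0.65) and ahsa1 (0.67) were not, with adjusted p-values of 0.0737, 0.106 and 0.120. The block gave 0 calls in each of the 5 pathway lists. It cannot change the transport minus control difference in the mean log2 alpha to beta ratio (1.52), because each replicate number occurs once per group.

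Calls with 1 library left out ranged from 3 to 1498 over the table, from 0 to 1 among further cochaperones, from 0 to 2 among HSP70 partners, from 0 to 1 higher and 0 to 3 lower among client genes, and from 0 to 3 higher and 0 to 2 lower among endoplasmic reticulum genes. DESeq2 called 2 of 33 further cochaperones higher, 6 of 34 client genes lower, and 4 of 27 endoplasmic reticulum genes higher and 2 lower. Over the table it called more genes as well, with 1586 higher, or 8.30% of those with an adjusted p, and 1750 lower. limma on log2(FPKM + 1) without a filter called 0 endoplasmic reticulum genes lower, and 627 genes higher and 429 lower over the table, against 671 and 718 by edgeR. The log2 fold changes of LOC113643342 (-0.14 to 0.98) and cdc37 (-0.16 to 0.21) turned negative without transport replicate 3, and neither was called in any fit. The cause of these changes was not tested. Among the 6 genes, ahsa1 had the fewest fragments in its lowest library, about 218, where counting alone gives an error of 6.78%. For LOC113655582 that error was 5.93%.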
